A study of Mus musculus with 10 samples.

Results

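Laminins and nidogens are glycoproteins of the basement membrane, and integrins are the receptors that tie cells to it, to other matrix proteins and to other cells. All gene entries of the deposited table whose symbols name a laminin α, β or γ chain, a nidogen, or an integrin α or β subunit were taken, which gave 39 of 24470 entries, of which 38 are analysed here. The data are from cultured testes of C57BL/6 mouse embryos at E12.5, of which 5 gave a pair of gonads each. From each embryo (M1 to M5), the gonad-mesonephros complex of one side was cultured for 48 h with 75 µM of a glycogen phosphorylase inhibitor (GPI), which blocks the breakdown of glycogen, and the other with the vehicle, DMSO. The gonad was then cut away from the mesonephros and RNA of the whole gonad was sequenced, so the groups are 5 vehicle gonads and 5 GPI gonads. The inhibitor reaches all cells of the gonad, and no cell type was sorted.

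A laminin is a trimer of an α, a β and a γ chain, and the trimers join into a sheet that nidogens and perlecan link to the collagen IV network. An integrin is a dimer of an α and a β subunit: the α subunit mostly sets the ligand (collagens, laminins, proteins with the RGD motif such as fibronectin, or counter-receptors on other cells), and the β subunit, most often β1, carries the tail that talin and kindlin bind inside the cell. In the fetal testis a basement membrane forms around the cords of Sertoli and germ cells, and another lies under the endothelium of the vessels that grow in from the mesonephros.

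The vehicle libraries held between 10203679 and 15590223 counts and the GPI libraries between 11025409 and 15635322. Levels are given as CPM, counts scaled to a library total of 1000000, after TMM scaling of all 10 libraries, in the order M1 to M5. Counts of amplified libraries are not independent molecules, so each SD below is taken between embryos. Each SE comes from edgeR's paired fit, in which the spread between embryos is moderated over all tested genes. Of the 10 libraries, the GPI gonad of M1 stood apart on the second principal component of the 500 most variable genes (5.33% of their variance), with a score of 19.6 against -6.15 to 8.15 in the other libraries. The tissue markers fixed for Sertoli cells, Sox9, Amh and Dhh, had counts in all 10 libraries.

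Of these 38 members, 32 had enough counts to be tested and 6 were set aside by the filter on low counts. With edgeR's quasi-likelihood test, paired by embryo, 15 of the 32 were called lower with GPI and 3 higher at an adjusted p (Benjamini-Hochberg, FDR) under 0.05; over all tested genes 22.9% were called, 11.9% lower and 11.1% higher. These shares were 46.9% lower and 9.38% higher among the tested members, and the median log2 fold change was -0.38, beside 0.02 over all tested genes. All 5 GPI levels lay under all 5 vehicle levels in 12 of the 32, which 9.04% of all tested genes did, and over them in 1, which 7.07% did. The GPI level was the lower in all 5 embryos for 16 members (15.2% of all tested genes) and the higher in all 5 for 3 (15.4%). Over the 11 alternatives, 13 (without M4 and without the pairing block) to 16 (no filter on low counts) members were called lower and 2 (without M2, without M3 and without the pairing block) to 4 (no filter on low counts) higher. Without embryo M1, 15 members were called lower and 3 higher, and of all tested genes 1685 and 1395, against 1654 and 1544 with it. The genes called higher over all tested genes numbered 969 without M3 and 1024 without M4. In RNA of a whole gonad, fewer cells of a type and less RNA per cell cannot be told apart, and this holds for each of the levels that follow.

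**Figure D1:**
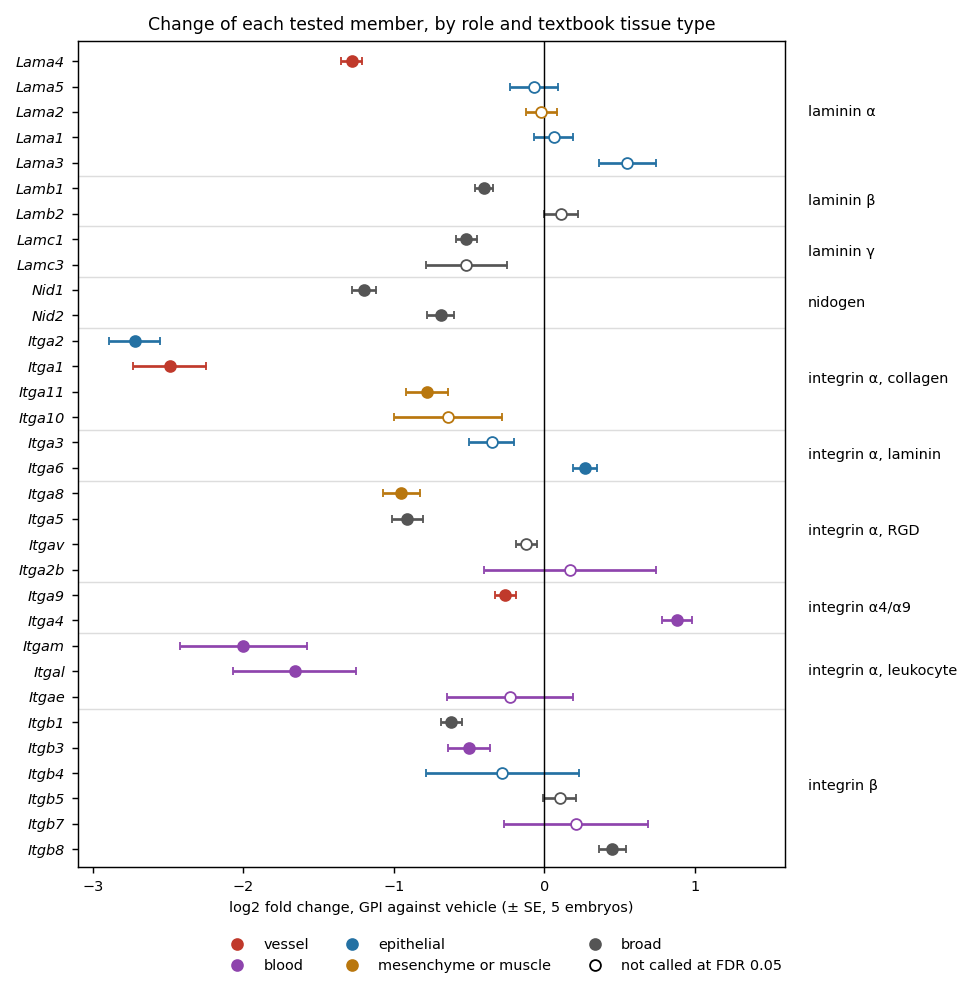
Log2 fold change of each of the 32 tested members, GPI against vehicle, with bars of ± SE from the paired edgeR fit of 5 embryos. Rows are grouped by role, colours give the textbook tissue type and open circles mark members not called at FDR 0.05. The points reach from -2.72 (Itga2) to 0.88 (Itga4), and most called members lie left of 0.

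Among the laminin α chains, 1 of 5 passed the test. Lama4 (Entrez 16775, chr10:38965515-39110188 of mm10), the α chain of endothelial and mesenchymal basement membranes, stood at 199, 208, 187, 204 and 198 CPM with vehicle and at 81.8, 80.7, 85.2, 78.4 and 83.5 CPM with GPI. Within a treatment the 5 gonads lay close together, and every GPI level was under every vehicle level. Over the 5 embryos the log2 fold change was -1.28 ± 0.07 (SE, edgeR adjusted p = 4.46e-08), a 2.43-fold lower level, and the log2 ratio within single embryos ran from -1.38 to -1.14.

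The other 4 α chains were not called. Lama2, the α chain of muscle and mesenchyme, had 168 ± 28.1 against 169 ± 39.5 CPM (SD, n = 5; vehicle first, as below) and a log2 fold change of -0.02 ± 0.10 (SE, edgeR adjusted p = 0.925). Lama1, the α chain of early embryonic and epithelial basement membranes, stood at 75.3, 65.8, 71, 62.4 and 68.2 CPM with vehicle and at 45.2, 81.4, 78.9, 77.3 and 79.3 CPM with GPI. Its GPI level was below the vehicle range in M1 and above that range in the other 4 embryos, and the log2 fold change of 0.06 ± 0.13 (SE, edgeR adjusted p = 0.811) moved to 0.23 (edgeR adjusted p = 0.0775, with a range of 0.0775 to 0.988 over the 11 alternatives that tested it) without M1. Lama3, an α chain of epithelia such as the skin, was at 4.49, 5.9, 6.43, 11.2 and 8.89 CPM with vehicle and 7.08, 12.2, 12.2, 11.8 and 9.63 CPM with GPI. The GPI gonad was the higher of the pair in all 5 embryos, by little in M4 and M5, and the log2 fold change of 0.55 ± 0.19 (SE, edgeR adjusted p = 0.0545) missed the threshold; it passed without M4 (adjusted p = 0.0492), without M5 (0.0471) and with no filter on low counts (0.0409), with a range of 0.0409 to 0.221 over the 11 alternatives that tested it. Lama5, the α chain of mature epithelial and vessel basement membranes, ran from 10.2 to 18.8 CPM with vehicle and from 9.89 to 18.3 with GPI, with a log2 fold change of -0.07 ± 0.16 (SE, edgeR adjusted p = 0.803).

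Lamb1, the β chain of most embryonic laminins, fell. It stood at 951, 906, 861, 813 and 840 CPM with vehicle and at 762, 620, 706, 602 and 625 CPM with GPI. In both groups M1 was the highest, and no GPI level reached the lowest vehicle level. This is a log2 fold change of -0.40 ± 0.06 (SE, edgeR adjusted p = 4.27e-04), 1.32-fold lower. Lamb2, the β chain of mature and synaptic basement membranes, had 40.3 ± 6.73 against 43.3 ± 4.62 CPM, overlapping ranges and a log2 fold change of 0.11 ± 0.11 (SE, edgeR adjusted p = 0.542). Lamb3, a β chain of epithelia, had at most 5 raw counts in a library and was not tested.

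Lamc1, the γ chain of nearly all laminins outside stratified epithelia, was at 388, 419, 372, 415 and 394 CPM with vehicle and at 313, 256, 274, 275 and 270 CPM with GPI. The groups did not overlap, with the smallest step in M1. On the log2 scale it changed by -0.52 ± 0.07 (SE, edgeR adjusted p = 1.27e-04). Lamc3 had 4.79 ± 1.6 against 3.44 ± 1.56 CPM and a log2 fold change of -0.52 ± 0.27 (SE, edgeR adjusted p = 0.2).

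Both nidogens fell. Nid1 (Entrez 18073, chr13:13437602-13512275), which binds the laminin γ1 arm and collagen IV, stood at 876, 819, 821, 886 and 711 CPM with vehicle and at 390, 368, 370, 311 and 353 CPM with GPI. The highest GPI level, in M1, lay well under the lowest vehicle level, in M5. The paired test gave a log2 fold change of -1.20 ± 0.08 (SE, edgeR adjusted p = 1.33e-07), 2.3-fold lower. Nid2, its paralog with a partly shared function, was at 165, 130, 139, 150 and 137 CPM with vehicle and at 100, 93.8, 101, 72.8 and 80.4 CPM with GPI. Its groups did not overlap either, M4 had the largest step, and the log2 fold change was -0.69 ± 0.09 (SE, edgeR adjusted p = 8.83e-05).

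**Figure D2:**
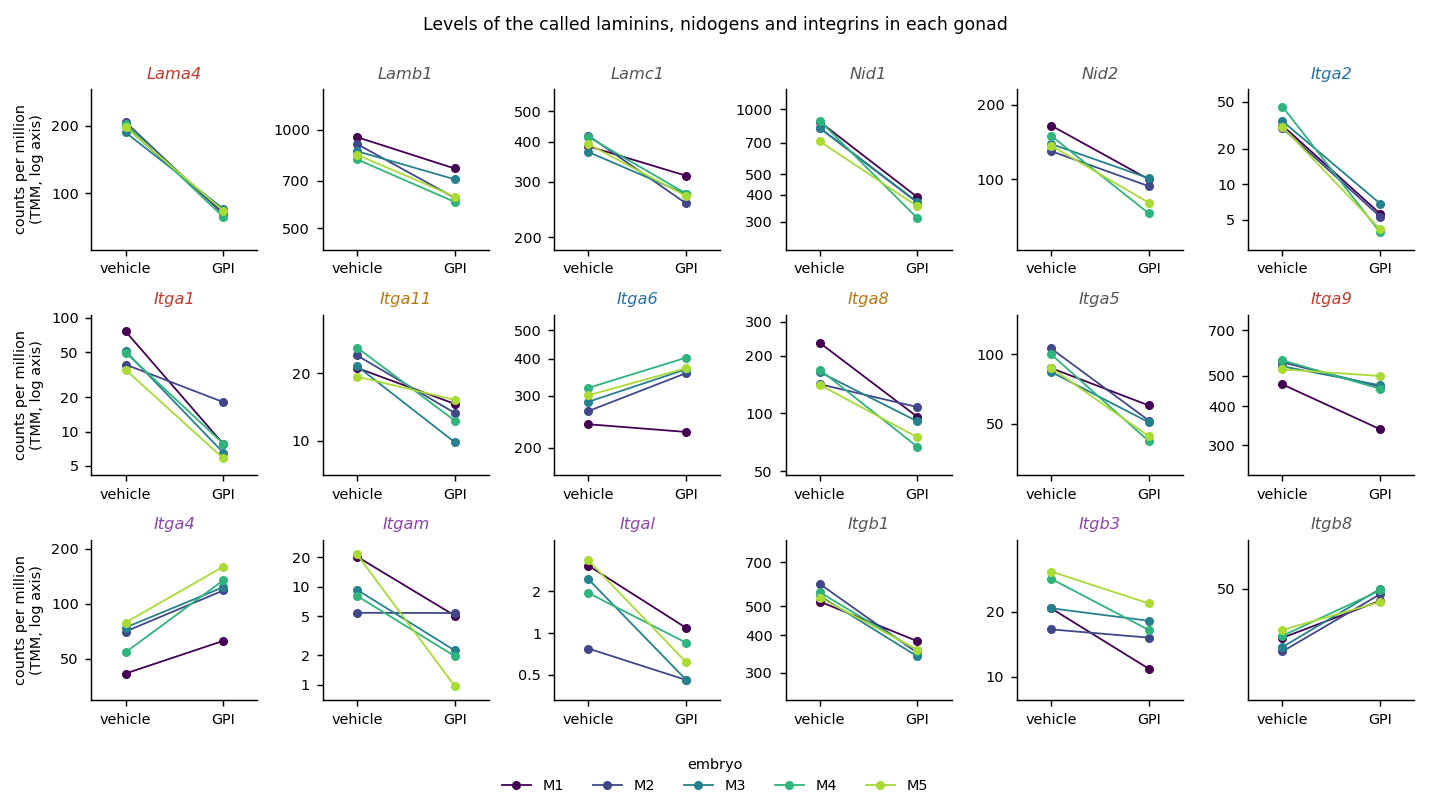
Level of each of the 18 called members in every gonad, in CPM on log axes of different range; each line joins the vehicle and the GPI gonad of 1 embryo and title colours give the textbook tissue type. Lines run down in all 5 embryos for 15 members, and Itga4 and Itgb8 run up in all 5, while Itga6 runs up in 4.

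Of the 4 integrin α subunits that bind collagens with β1, 3 fell, and 2 of them had the largest log2 fold changes of the tested members. Itga2 (Entrez 16398, chr13:114835912-114932041), a collagen and laminin receptor of epithelia, vessels and platelets, stood at 31.4, 29.8, 34.2, 45.4 and 30.6 CPM with vehicle and at 5.62, 5.32, 6.86, 3.92 and 4.15 CPM with GPI. M4 had both the highest vehicle level and the lowest GPI level, and the groups were separated by more than the spread in either. In the paired test Itga2 had a log2 fold change of -2.72 ± 0.17 (SE, edgeR adjusted p = 1.19e-07), a 6.58-fold lower level.

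Itga1 (Entrez 109700, chr13:114958079-115101964), the collagen IV receptor of small vessels, smooth muscle and mesenchyme, was at 76.2, 38.9, 51, 49.6 and 35 CPM with vehicle and at 7.8, 18.2, 6.55, 7.85 and 5.83 CPM with GPI. M1 was highest with vehicle and M2 with GPI, where it stood at over 2 times each of the other 4 GPI gonads, and still the groups did not overlap. The log2 fold change was -2.49 ± 0.24 (SE, edgeR adjusted p = 6.33e-06), and the log2 ratio within embryos was -3.26, -1.09, -2.93, -2.63 and -2.55 from M1 to M5. Pelo, a gene of another function nested in Itga1 on the same strand, had 3.82 ± 1.21 CPM with vehicle and 3.26 ± 0.697 with GPI (SD, n = 5) and was not called (log2 fold change -0.20, edgeR adjusted p = 0.641).

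Itga11, a collagen I receptor of fibroblasts, stood at 21.1, 24, 21.5, 26 and 19.3 CPM with vehicle and at 14.6, 13.3, 9.86, 12.3 and 15.2 CPM with GPI. All GPI levels were under the lowest vehicle level, with small steps in M1 and M5, and the log2 fold change was -0.78 ± 0.14 (SE, edgeR adjusted p = 0.00108). Itga10, the receptor of cartilage collagen, had 2.19 ± 0.708 against 1.38 ± 0.342 CPM and a log2 fold change of -0.64 ± 0.36 (SE, edgeR adjusted p = 0.231). Summed per kb of transcript, the 4 collagen-binding subunits came to 0.118, 0.083, 0.102, 0.113 and 0.0849 times the Itgb1 level per kb with vehicle and to 0.0463, 0.0596, 0.043, 0.0427 and 0.0473 times with GPI. Each GPI ratio was below each vehicle ratio; no test was run on this ratio.

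Itga2 and Itga1 are neighbours on chromosome 13, on the minus strand, with 26037 bases and no other entry between them. Since these 2 fell together, the 250 bases before their starts are shown from RefSeq (GRCm38.p6), with those of Nid1, which also fell, and of Itga4, which rose. Capitals mark GGAA or its complement TTCC, the core that ETS factors bind. The RefSeq start of Itga2 lies 59 bases before the deposited entry, and the other 3 starts do not lie before theirs.
Itga1, chr13:115101965-115102214, minus strand: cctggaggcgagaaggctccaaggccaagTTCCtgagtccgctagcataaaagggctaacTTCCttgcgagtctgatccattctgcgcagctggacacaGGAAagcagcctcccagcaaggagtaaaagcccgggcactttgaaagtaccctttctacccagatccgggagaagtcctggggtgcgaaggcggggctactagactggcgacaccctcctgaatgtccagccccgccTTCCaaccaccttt
Itga2, chr13:114932101-114932350, minus strand: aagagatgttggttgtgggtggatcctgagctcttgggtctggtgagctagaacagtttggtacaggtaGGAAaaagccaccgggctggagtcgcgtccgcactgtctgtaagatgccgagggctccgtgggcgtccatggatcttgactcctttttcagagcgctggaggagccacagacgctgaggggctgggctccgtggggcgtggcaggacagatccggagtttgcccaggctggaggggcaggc
Nid1, chr13:13437352-13437601, plus strand: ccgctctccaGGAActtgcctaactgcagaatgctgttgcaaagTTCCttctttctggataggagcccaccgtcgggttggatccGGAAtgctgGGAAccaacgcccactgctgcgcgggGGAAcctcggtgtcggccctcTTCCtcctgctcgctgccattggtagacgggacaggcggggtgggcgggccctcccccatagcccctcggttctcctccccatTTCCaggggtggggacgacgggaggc
Itga4, chr2:79255176-79255425, plus strand: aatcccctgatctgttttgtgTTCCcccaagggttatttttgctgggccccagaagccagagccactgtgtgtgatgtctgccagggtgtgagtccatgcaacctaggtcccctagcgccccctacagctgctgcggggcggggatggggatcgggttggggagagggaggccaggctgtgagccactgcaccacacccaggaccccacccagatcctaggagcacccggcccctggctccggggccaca
In these windows GGAA or TTCC occurs 4 times before Itga1, 1 before Itga2, 7 before Nid1 and 1 before Itga4, and G and C make up 57.6%, 60.8%, 64.4% and 64% of the bases. The RefSeq table held 27 promoters of 24 members, of 250 bases before to 50 after the start. On either strand, 26 of the 27 held GGAA, beside 96% of all 32851 promoters of that length, and 3 held the longer CGGAAG (16.9%), which contains it. The GATA motif AGATAA was in 1 (11.2%), the SP1 motif GGGCGG in 13 (35.7%) and the KLF motif CACCC in 18 (57.5%). The AP-1 motif TGANTCA was in 3 (7.81%) and the E-box CANNTG in 22 (72.3%). These matches describe the letters in the windows only.

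Besides Itga1 and Itga2, which also bind collagens, 2 α subunits known mainly as laminin receptors were tested, of which Itga6 rose and Itga3 was not called. Itga6, which pairs with β1 or β4 and is made by epithelia, endothelium and germ line cells, stood at 240, 266, 286, 319 and 301 CPM with vehicle and at 226, 358, 369, 404 and 372 CPM with GPI. The GPI gonad of M1 was the lowest of the 10 and was below its own vehicle gonad, whereas in M2 to M5 GPI was the higher. The log2 fold change was 0.27 ± 0.08 (SE, edgeR adjusted p = 0.025); the call was lost without M2, M3, M4 or M5 (adjusted p of 0.0738, 0.14, 0.094 and 0.0713) and without the pairing block (0.117), and without M1 it was 0.34 (adjusted p = 0.00307, with a range of 0.00307 to 0.14 over the 11 alternatives that tested it). Itga3, the laminin receptor of podocytes and other epithelia, had 20.4 ± 3.78 against 16 ± 2.64 CPM and a log2 fold change of -0.35 ± 0.15 (SE, edgeR adjusted p = 0.124). Itga7, the laminin receptor of muscle, had at most 12 raw counts in a library and was not tested.

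Of the 4 RGD-binding α subunits, 2 fell. Itga5, the fibronectin receptor, stood at 87.2, 106, 83.9, 100 and 87.4 CPM with vehicle and at 60.1, 51.7, 50.8, 42.1 and 44.2 CPM with GPI. No GPI gonad came near the vehicle range, and M1 had the highest GPI level. In the paired test Itga5 had a log2 fold change of -0.91 ± 0.10 (SE, edgeR adjusted p = 2.19e-05). Itga8, the nephronectin receptor of mesenchyme, was at 233, 142, 164, 169 and 141 CPM with vehicle and at 96, 108, 91, 67.1 and 75.2 CPM with GPI. M1 was highest with vehicle, M2 with GPI, and the groups did not overlap. Its log2 fold change was -0.95 ± 0.12 (SE, edgeR adjusted p = 4.85e-05). Itgav, which pairs with β1, β3, β5, β6 or β8, stood at 242, 232, 228, 246 and 216 CPM with vehicle and at 240, 200, 218, 216 and 200 CPM with GPI. In each embryo the GPI level was the lower, with log2 ratios from -0.21 to -0.01, and the ranges overlapped. The log2 fold change of -0.12 ± 0.07 (SE, edgeR adjusted p = 0.23) was not called. Itga2b, the platelet subunit, had between 1 and 28 raw counts with vehicle and between 2 and 16 with GPI, and a log2 fold change of 0.17 ± 0.57 (SE, edgeR adjusted p = 0.875).

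Of the related subunits α4 and α9, Itga4 rose and Itga9 fell. Itga4 (Entrez 16401, chr2:79255426-79333114), the VCAM-1 and fibronectin receptor of blood cells and some mesenchyme, stood at 41.5, 70.4, 74, 54.2 and 78.8 CPM with vehicle and at 62.6, 118, 123, 134 and 159 CPM with GPI. M1 was lowest in both groups and its GPI level lay inside the vehicle range, while within every embryo GPI was the higher. With all 5 embryos, Itga4 had a log2 fold change of 0.88 ± 0.10 (SE, edgeR adjusted p = 2.35e-05), 1.84-fold higher. Itga9, a receptor for tenascin-C and osteopontin with a known part in lymphatic valves, was at 469, 552, 536, 560 and 524 CPM with vehicle and at 337, 461, 466, 454 and 499 CPM with GPI. GPI was the lower in every pair, M1 was lowest in both groups, and the ranges overlapped. The log2 fold change was -0.26 ± 0.07 (SE, edgeR adjusted p = 0.0148); it missed the threshold without M4 (adjusted p = 0.0612) and without the pairing block (0.0591), with a range of 0.00295 to 0.0612 over the 11 alternatives that tested it.

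Among the α subunits of leukocytes, which pair with β2 or β7, the levels were low and 2 of the 3 tested fell. Itgam, the subunit of Mac-1 on macrophages and granulocytes, stood at 20.3, 5.42, 9.32, 8.07 and 21.4 CPM with vehicle and at 5.08, 5.39, 2.24, 1.96 and 0.971 CPM with GPI. M1 and M5 were high with vehicle, and in M2 the gonads had almost the same level, 5.42 and 5.39 CPM, so that the groups only just failed to overlap. In the test Itgam had a log2 fold change of -2.00 ± 0.42 (SE, edgeR adjusted p = 0.00312). Itgal, the subunit of LFA-1, was at 3.05, 0.774, 2.44, 1.94 and 3.33 CPM with vehicle and at 1.09, 0.46, 0.462, 0.853 and 0.618 CPM with GPI. The vehicle gonad of M2 lay within the GPI range, and the log2 fold change was -1.66 ± 0.41 (SE, edgeR adjusted p = 0.00896). Itgae, the E-cadherin receptor of lymphocytes in epithelia, had 2.22 ± 0.714 against 2.06 ± 1.28 CPM and a log2 fold change of -0.23 ± 0.42 (SE, edgeR adjusted p = 0.758).

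Itgax, another β2 partner, had 12, 3, 3, 1 and 7 raw counts with vehicle and 0, 3, 1, 0 and 0 with GPI and was not tested. Itgad had 0, 0, 0, 0 and 0 with vehicle and 3, 9, 6, 0 and 3 with GPI; Cox6a2 and another entry overlap it on the other strand, and Cox6a2 had 0.0955 ± 0.168 CPM with vehicle and 1.23 ± 0.431 with GPI (SD, n = 5). Reads were counted without strand, so strand did not help to assign reads in the shared bases, and so few counts support no comparison. Itgb2, the β subunit of all these receptors but αE, had 16, 19, 8, 4 and 43 raw counts with vehicle and 3, 6, 3, 1 and 0 with GPI. It was the lower with GPI in each pair; set aside by the filter, it was called with no filter on low counts (log2 fold change -2.65, edgeR adjusted p = 0.0097).

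Itgb1 (Entrez 16412, chr8:128685654-128733579), the partner of most α subunits above, stood at 518, 593, 541, 556 and 534 CPM with vehicle and at 382, 349, 340, 355 and 358 CPM with GPI. The 5 gonads of a group were close to each other and the groups were separate, with the smallest step in M1. Paired by embryo, Itgb1 had a log2 fold change of -0.62 ± 0.07 (SE, edgeR adjusted p = 1.58e-05), 1.54-fold lower. Itgb3, the partner of αIIb on platelets and of αV on vessels and other cells, was at 20.8, 16.6, 20.8, 28.5 and 30.8 CPM with vehicle and at 10.9, 15.2, 18.2, 16.5 and 21.9 CPM with GPI. GPI was the lower in each pair, by little in M2 and M3, and the ranges overlapped. Its log2 fold change of -0.50 ± 0.14 (SE, edgeR adjusted p = 0.0173) lost the call without M4 (adjusted p = 0.089), without M5 (0.0523) and without the pairing block (0.0635), with a range of 0.00688 to 0.089 over the 11 alternatives that tested it.

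Itgb8, the partner of αV in the release of active TGF-β, rose: it stood at 35.7, 32.5, 33.5, 36.2 and 37.7 CPM with vehicle and at 46.1, 48.2, 50, 49.5 and 45.7 CPM with GPI. All GPI levels were over all vehicle levels, which held for no other tested member. Itgb8 had a log2 fold change of 0.45 ± 0.09 (SE, edgeR adjusted p = 0.00265). Itgb5, the other common αV partner, had 26.1 ± 3.85 against 27.7 ± 2.69 CPM and a log2 fold change of 0.10 ± 0.11 (SE, edgeR adjusted p = 0.58). Itgb4, the hemidesmosome subunit that pairs with α6, had 1.3 ± 0.604 against 1.1 ± 0.684 CPM and -0.28 ± 0.51 (SE, edgeR adjusted p = 0.754), and Itgb7, of gut-homing lymphocytes, 1.23 ± 1.01 against 1.2 ± 0.378 CPM and 0.21 ± 0.48 (SE, edgeR adjusted p = 0.814). Itgb6, a β subunit of epithelia, had 167, 0, 37, 0 and 0 raw counts with vehicle and 5, 28, 0, 0 and 0 with GPI. Nearly all its counts came from the vehicle gonads of M1 and M3 and the GPI gonad of M2, and it was not tested.

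**Figure D3:**
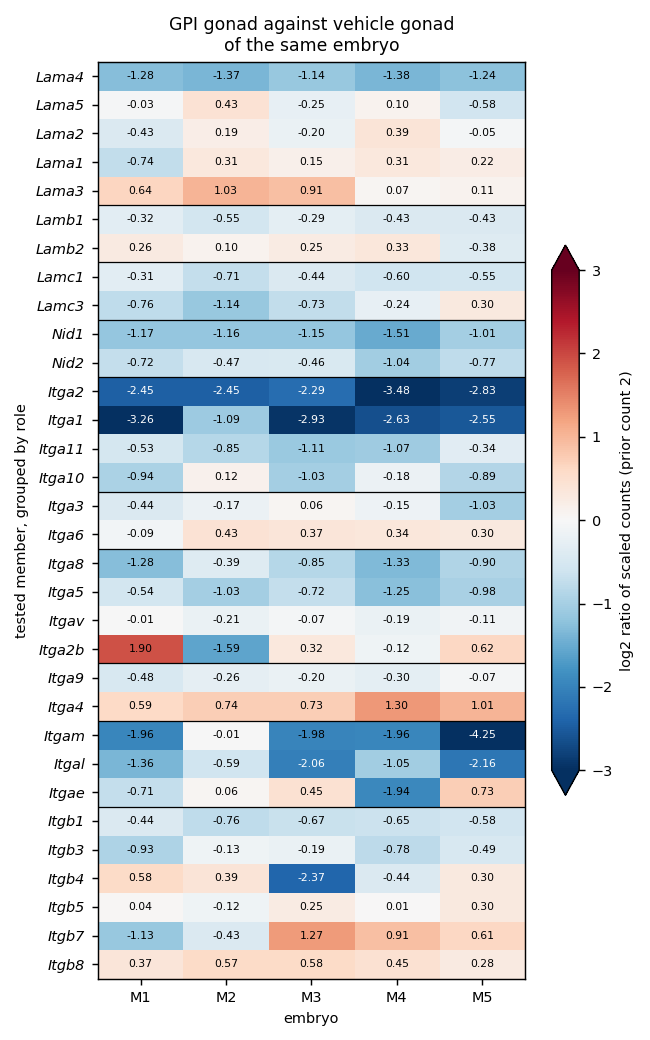
Log2 ratio of the GPI gonad to the vehicle gonad of the same embryo for each tested member, grouped by role, from scaled counts with a prior count of 2; red is higher and blue lower with GPI, and colours are capped at 3 either way. The called falls hold their sign across the 5 columns, and Lama1 and Itga6 have the opposite sign in M1.

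To compare genes, levels were divided by the length of the longest protein-coding transcript in GENCODE M21 (CPM per kb), and shares were taken of the sum over each family; the shares rest on the levels above and were not tested. Lama4 made up 57.5, 58.4, 51.2, 58 and 51.6% of laminin α chain RNA per kb with vehicle and 43.4, 31.2, 33.4, 29.5 and 31.1% with GPI. It was the leading α chain in all vehicle gonads and in the GPI gonad of M1. Lama2 held 25.1, 27.4, 32.8, 27.3 and 33.7% with vehicle and 34.2, 43.3, 41, 47.2 and 46.2% with GPI, and so led in the GPI gonads of M2 to M5. Lamb1 made up no less than 93.1% of the β chain RNA per kb in each of the 10 gonads.

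The nidogens summed per kb came to 3.49, 2.93, 3.34, 3.24 and 2.8 times Lamc1 with vehicle and to 2.06, 2.37, 2.27, 1.83 and 2.1 times with GPI. All 5 GPI ratios were under the vehicle ratios. The laminin α chains summed came to 1.13, 1.07, 1.24, 1.07 and 1.22 times Lamc1 with vehicle and to 0.761, 1.27, 1.17, 1.22 and 1.26 times with GPI, where M1 was below the vehicle range and the others within or above it.

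Among integrin α subunits, Itga9 and Itga6 had the highest CPM per kb in each gonad. Itga6 made up 22.4, 24.9, 26.5, 27.5 and 27.9% of the α subunit sum with vehicle and 28.8, 36.1, 37, 40.3 and 36.9% with GPI, and Itga9 26.9, 31.7, 30.4, 29.6 and 29.8% and 26.4, 28.5, 28.7, 27.8 and 30.4%. With GPI, Itga6 had the higher share of the pair in all 5 gonads, and with vehicle Itga9 did. Itgb1 held 86.2, 90.6, 89.9, 88.6 and 88.7% of the β subunit sum with vehicle and 85, 84.4, 83.3, 83.5 and 83.7% with GPI. The α sum was 1.58, 1.45, 1.59, 1.64 and 1.59 times the β sum with vehicle and 1.54, 2.12, 2.16, 2.09 and 2.08 times with GPI. This ratio was above the vehicle range in the GPI gonads of M2 to M5 and within it in M1.

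**Figure D4:**
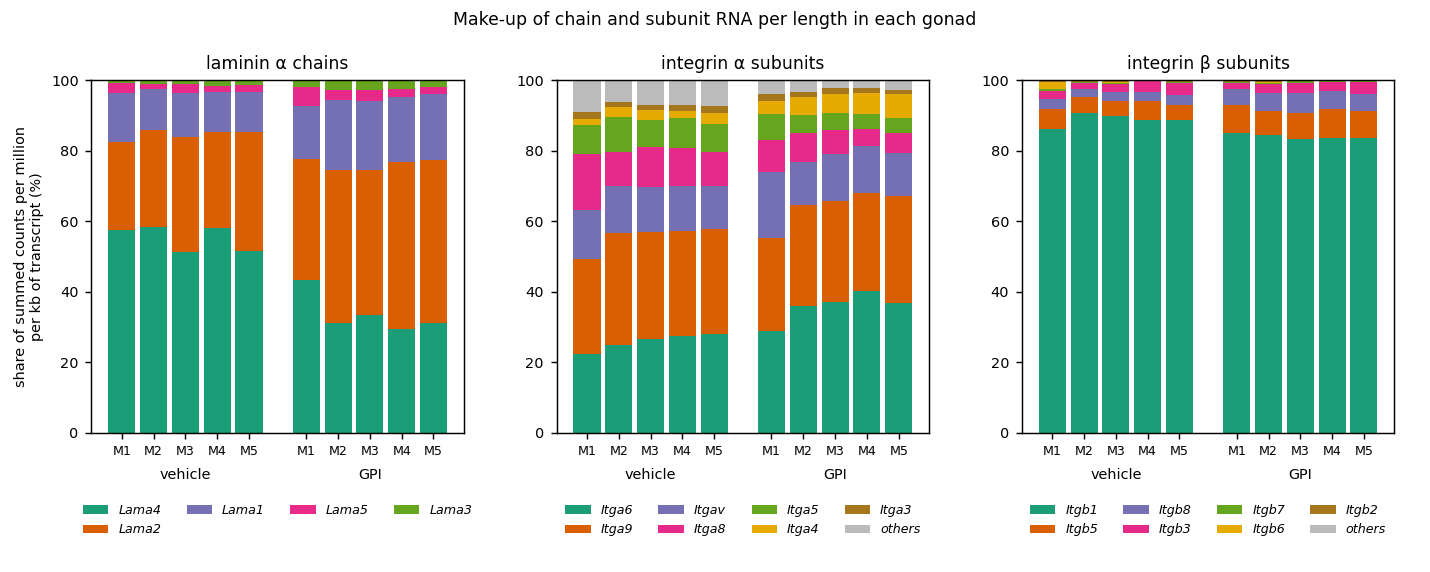
Share of each chain or subunit in the summed CPM per kb of its family, as stacked bars of 100% for each gonad; the smaller α and β subunits are pooled as others. Lama4 covers from 51.2% to 58.4% of the laminin α bars with vehicle and from 29.5% to 43.4% with GPI, and Itgb1 fills most of each β bar.

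Split by the tissue in which each member is best known, with 1 type per member although many are made by several, all 3 vessel members (Lama4, Itga1 and Itga9) fell, Itga9 not without M4 or without the pairing block, with a median log2 fold change of -1.28. Their summed level was 744, 799, 775, 813 and 757 CPM with vehicle and 426, 560, 557, 540 and 588 CPM with GPI. The groups did not overlap, and Itga9, with the smallest log2 fold change of the 3, had the most CPM of the sum in each gonad. Itga9 stood at 528 ± 35.8 CPM with vehicle and 443 ± 62 with GPI (SD, n = 5), so the sum mostly follows it. Which cells hold its RNA was not tested. Beside them, all 12 endothelial markers, among them Pecam1, Cdh5 and Tek, were lower with GPI, with a median of -3.22; their summed level was 825, 840, 809, 917 and 848 CPM with vehicle and 101, 119, 78.1, 62.8 and 73.8 with GPI, Cdh5 was the most abundant (229 ± 17.9 CPM with vehicle and 18.8 ± 5.13 with GPI, SD, n = 5), and Pecam1, Cdh5 and Tek had counts in every library. Of the 8 mural and smooth muscle markers, 3 of the 7 tested fell. These were Rgs5, Cspg4 and Pdgfrb, with log2 fold changes of -4.32, -1.44 and -1.55. Acta2, Tagln and Myh11 were not called, and Pdgfrb was the most abundant. The sum of these markers was 348, 381, 427, 389 and 365 CPM with vehicle and 241, 216, 228, 175 and 210 with GPI. The part of these cell types in the fall of the vessel members was not tested.

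The 10 blood members went both ways: of 7 tested, Itgam, Itgal and Itgb3 fell, Itgb3 not without M4, without M5 or without the pairing block, and Itga4 rose (median -0.23). Their sum, 94.4, 101, 110, 96.9 and 141 CPM with vehicle and 84.7, 144, 149, 156 and 189 CPM with GPI, had Itga4 as its most abundant gene in each gonad. M1 had the lowest sum in both groups. Itga4 stood at 63.8 ± 15.5 CPM with vehicle and 119 ± 35.3 with GPI (SD, n = 5), so the sum mostly follows this 1 gene. Its rise ran opposite to most of the tested blood cell markers that follow, and the cells that hold its RNA were not tested. Of the 10 macrophage markers, 8 of 9 tested fell, the defining Csf1r and Cx3cr1 among them and Adgre1 not; Lyz2 was the most abundant and the sum was 96.6, 73.9, 72.7, 68.5 and 78.6 CPM with vehicle and 33.8, 31.1, 32.8, 19.8 and 18.5 with GPI. All 3 tested of 6 neutrophil markers fell, with S100a9 the most abundant; the sum was 40.7, 58.5, 74.8, 16.9 and 121 CPM with vehicle and 0.363, 11.2, 2.39, 0 and 2.03 with GPI, S100a8 was at 0 in 2, S100a9 in 1 and Elane in 5 GPI libraries, and Elane was at 0 in 2 vehicle libraries.

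Itga2b and Itgb3 together form the platelet fibrinogen receptor. Of the 8 megakaryocyte and platelet markers, 2 were tested, of which Pf4 fell and Gp1ba, the most abundant, was not called. The sum was 4.31, 8.41, 5.88, 15.9 and 8.52 CPM with vehicle and 3.9, 1.84, 3.47, 4.86 and 3.89 with GPI, and Gp1bb was at 0 in 2 vehicle and 4 GPI libraries. All 8 erythroid markers fell (7 of 8 without M2, M3 or M4), Hba-a1, Hba-a2 and Hbb-bt among them, with Hbb-y the most abundant and sums of 148, 197, 386, 368 and 309 CPM with vehicle and 114, 69.5, 64, 69.5 and 162 with GPI. The part of these blood cells in the levels of the blood members was not tested.

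Of the 9 epithelial members analysed, 7 were tested: Itga2 fell, Itga6 rose, and Lama1, Lama3, Lama5, Itga3 and Itgb4 were not called (median -0.07). Their sum was 412, 397, 438, 470 and 448 CPM with vehicle and 322, 490, 499, 527 and 487 CPM with GPI. The GPI gonad of M1 was the lowest of the 10, and the GPI gonads of M2 to M5 were above each vehicle gonad; Itga6, whose call was lost under 5 of the 11 alternatives, had the most CPM of the sum in each gonad. Of 9 epithelial and coelomic markers, 8 were tested: Epcam fell, Upk1b rose (not called without M3), and Krt7 and Krt8 were not called; Upk3b was the most abundant and the sum was 119, 84.1, 87.9, 66.4 and 68.4 CPM with vehicle and 97.2, 84, 82.3, 71.2 and 87.8 with GPI. Of 5 mesonephric tubule markers, 2 were tested: Emx2, the most abundant, fell, and Pax8 was not called. Pax2 was at 0 in 1 vehicle library and Lhx1 in 4 GPI libraries. The sum of these markers was 127, 94.4, 108, 91.6 and 68.9 CPM with vehicle and 64.2, 76.7, 48.4, 46.6 and 64.5 with GPI. Emx2 alone held 79.5 ± 8.87 CPM with vehicle and 48.4 ± 9.62 with GPI (SD, n = 5), so this sum mostly follows 1 gene. By itself the sum does not show a fall of tubule RNA. The sum of the Sertoli markers, given by gonad below, ran from 171 to 246 CPM with vehicle and from 228 to 388 with GPI. M1 was lowest in both groups. The part of any of these cells in the epithelial members was not tested.

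Of the 5 members of mesenchyme and muscle, Itga8 and Itga11 fell, Lama2 and Itga10 were not called and Itga7 was not tested; the sum was 395, 323, 379, 349 and 368 CPM with vehicle and 215, 302, 268, 280 and 289 CPM with GPI. Of the 11 broad members, Lamb1, Lamc1, Nid1, Nid2, Itga5 and Itgb1 fell, Itgb8 rose, and Lamb2, Lamc3, Itgav and Itgb5 were not called; they summed to 3334, 3306, 3149, 3272 and 3035 CPM with vehicle and 2373, 2052, 2189, 2001 and 2047 CPM with GPI. In both sets the GPI gonads lay below all vehicle gonads. Of 4 markers of interstitial mesenchyme, Pdgfra rose, Tcf21 and Col1a1, the most abundant, fell (1 of these 2 without M2, M3 or M4) and Nr2f2 was not called, and the sum was 1894, 2070, 1903, 1490 and 1795 CPM with vehicle and 1656, 1779, 1542, 1339 and 1798 with GPI. Of 8 Sertoli markers 6 rose, Sox9, the most abundant, and Dhh among them, and Amh was not called (5 rose without the pairing block, with total counts, and without M2, M3, M4 or M5; sums of 171, 246, 175, 210 and 242 CPM and 228, 338, 342, 388 and 318 CPM, vehicle first). All 4 tested of 5 fetal Leydig markers rose, among them Cyp17a1, Cyp11a1 and Star, with Hsd3b1 the most abundant (sums of 104, 219, 323, 161 and 430 CPM and 781, 820, 1276, 1466 and 1048 CPM). All 5 tested of 6 germ cell markers fell, Ddx4, Dazl, the most abundant, and Dppa3 among them (sums of 94.4, 190, 126, 156 and 61.4 CPM and 10.8, 8.74, 2.08, 2.81 and 9.45 CPM). The part of these cells in the levels of the mesenchyme and broad members was not tested. Except where given at 0, the first 3 markers of each of the 12 lists had counts in all 10 libraries.

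**Figure D5:**
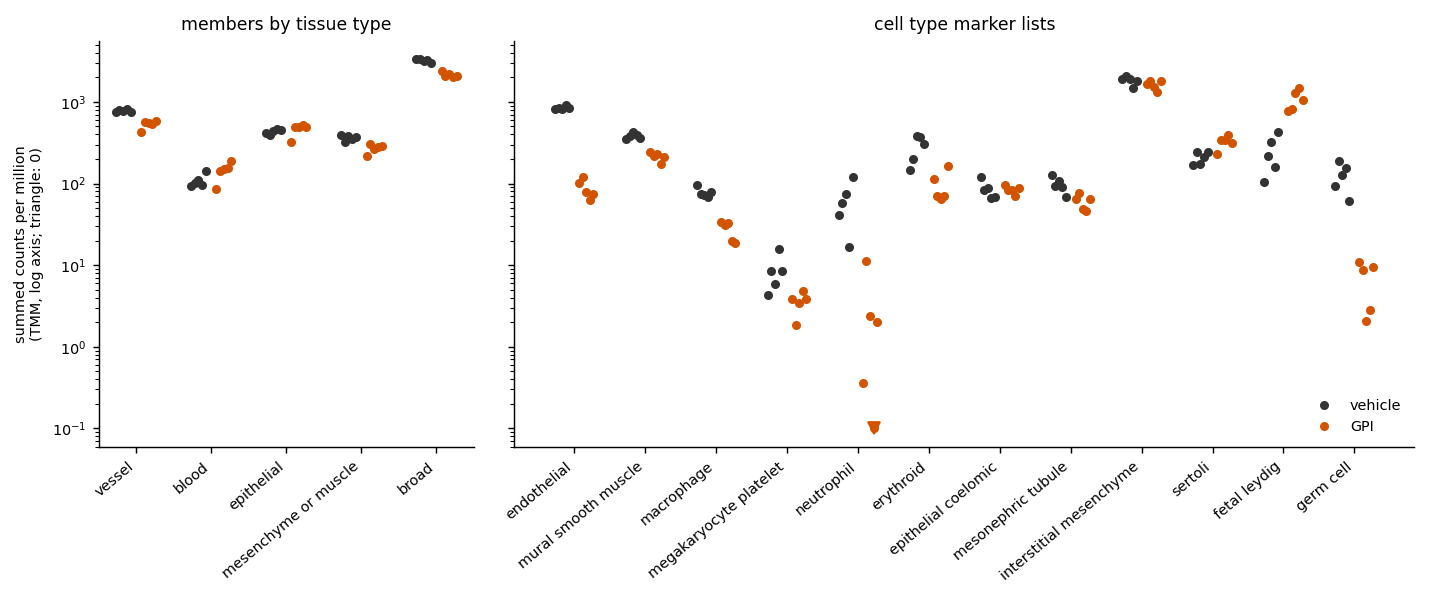
Summed CPM, on a log axis, of the members by textbook tissue type (left) and of the 12 cell type marker lists (right); each point is 1 gonad, ordered M1 to M5 within a group, and a triangle marks a sum of 0. Vessel members lie between 744 and 813 with vehicle and between 426 and 588 with GPI, and endothelial markers between 809 and 917 and between 62.8 and 119. Itga9 has the most CPM of the vessel sum, and Itga4 of the blood sum, in each gonad.

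The other genes of the same structures were taken as 3 lists. Of 22 other basement membrane genes, all tested, 9 were lower and 4 higher with GPI (40.9% and 18.2%, beside 11.9% and 11.1% of all tested genes; median -0.35, beside 0.02). The collagen IV chains Col4a1 and Col4a2, to which nidogen binds, had log2 fold changes of -1.42 ± 0.09 (SE, edgeR adjusted p = 1.30e-07, lower in 5 of 5 embryos) and -1.29 ± 0.12 (SE, edgeR adjusted p = 2.94e-06, lower in 5 of 5 embryos), while Col4a3 to Col4a6 were not called. Of the Fraser complex, Frem1 had -1.21 ± 0.09 (SE, edgeR adjusted p = 6.79e-07, lower in 5 of 5 embryos), Fras1 0.90 ± 0.10 (SE, edgeR adjusted p = 2.35e-05, higher in 5 of 5 embryos) and Frem2, not called, -0.37 ± 0.13 (SE, edgeR adjusted p = 0.0675, lower in 4 of 5 embryos). Frem2 passed the threshold with DESeq2 (adjusted p = 0.0469), total counts (0.0382), no filter on low counts (0.0308) and without M2 (0.00463), with a range of 0.00463 to 0.267 over the 11 alternatives that tested it. The other 3 genes of this list that rose were Smoc1 with 1.43 ± 0.18 (SE, edgeR adjusted p = 5.25e-05, higher in 5 of 5 embryos), Smoc2 with 1.12 ± 0.15 (SE, edgeR adjusted p = 9.46e-05, higher in 5 of 5 embryos) and Dag1, the dystroglycan that binds laminins, with 0.37 ± 0.07 (SE, edgeR adjusted p = 0.00227, higher in 5 of 5 embryos). The change of Hspg2, the perlecan core protein that nidogens tie to laminin, was -0.56 ± 0.08 (SE, edgeR adjusted p = 1.72e-04, lower in 5 of 5 embryos). Of 15 further integrin ligands, 13 were tested, 6 of them lower and 2 higher (46.2% and 15.4%; median -0.27). Icam2, the endothelial ligand of LFA-1, fell with a log2 fold change of -3.53 ± 0.23 (SE, edgeR adjusted p = 1.83e-07, lower in 5 of 5 embryos), Tgfb1, whose latent form αV integrins bind, with -1.81 ± 0.14 (SE, edgeR adjusted p = 6.16e-07, lower in 5 of 5 embryos), and Postn, a ligand of αV integrins, with -1.66 ± 0.13 (SE, edgeR adjusted p = 6.93e-07, lower in 5 of 5 embryos). The 2 ligands that rose were Spp1 (osteopontin), with 0.58 ± 0.13 (SE, edgeR adjusted p = 0.00386, higher in 4 of 5 embryos), and Thbs1, with 0.37 ± 0.12 (SE, edgeR adjusted p = 0.036, higher in 5 of 5 embryos), whose call was lost without the pairing block (adjusted p = 0.0565), with total counts (0.0767) and without M1, M3, M4 or M5 (0.167, 0.108, 0.0746 and 0.0904), with a range of 0.016 to 0.167 over the 11 alternatives that tested it. Fn1, the ligand of α5β1, had -0.27 ± 0.07 (SE, edgeR adjusted p = 0.0137, lower in 5 of 5 embryos) and lost the call without M4 (adjusted p = 0.067) or without M5 (0.0643), with a range of 0.00342 to 0.067 over the 11 alternatives that tested it. Vcam1, the ligand of α4β1, had a log2 fold change of 0.60 ± 0.21 (SE, edgeR adjusted p = 0.0534, higher in 4 of 5 embryos) and passed the threshold with DESeq2 (adjusted p = 0.0264), with no filter on low counts (0.012) and without M3 (0.0227), with a range of 0.012 to 0.21 over the 11 alternatives that tested it. Tnc (tenascin-C), which α9 binds as it does osteopontin, fell by -0.90 ± 0.12 on the log2 scale (SE, edgeR adjusted p = 8.40e-05, lower in 5 of 5 embryos). Npnt (nephronectin), the ligand of α8 and a gene of the basement membrane list, was not called (-0.88 ± 0.40, SE, edgeR adjusted p = 0.137, lower in 3 of 5 embryos).

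Of 29 genes of the adhesion machinery inside the cell, 25 were tested, 14 of them lower (56%) and the other 11 not called (median -0.33). Tln1 (talin) and Fermt2 (kindlin-2), which bind the β subunit tail, had log2 fold changes of -0.41 ± 0.07 (SE, edgeR adjusted p = 0.00101, lower in 5 of 5 embryos) and -0.60 ± 0.08 (SE, edgeR adjusted p = 7.94e-05, lower in 5 of 5 embryos). The smallest p values of this list belonged to genes that link integrins to actin: Tns1 with -0.91 ± 0.08 (SE, edgeR adjusted p = 3.80e-06, lower in 5 of 5 embryos), Lims1 with -0.83 ± 0.08 (SE, edgeR adjusted p = 4.17e-06, lower in 5 of 5 embryos) and Actn1 with -0.81 ± 0.09 (SE, edgeR adjusted p = 1.35e-05, lower in 5 of 5 embryos). Fermt3, the kindlin of blood cells, had 0.897 ± 0.273 CPM with vehicle and 0.32 ± 0.232 with GPI (SD, n = 5) and was not tested. Over the 3 lists, 29 of 60 tested genes were lower and 6 higher (48.3% and 10%, beside 11.9% and 11.1% of all tested genes), with 24 (without M4) to 32 (total counts only) lower and 5 to 7 higher over the 11 alternatives.

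Counting took no account of strand, and 11 of the 38 members overlap another gene. Among the called members besides Itga1 these are Itga4, which shares 624 bases with Cerkl, Itga5, which holds Mir6963, Itga8, which shares 675 bases with E030013I19Rik, and Nid2, which shares 386 bases with Rtraf. Cerkl had 0.416 ± 0.294 CPM with vehicle and 0.517 ± 0.254 with GPI (SD, n = 5) and Mir6963 had no counts. E030013I19Rik fell from 2.35 ± 0.835 to 0.441 ± 0.16 CPM (edgeR adjusted p = 0.00131), and Rtraf was at 62.8 ± 8.8 and 55.8 ± 8.44 CPM and was not called.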

How the data were processed

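Testes of 5 embryos were sequenced as 10 libraries, 1 from each gonad, made with the Ovation RNA-Seq System V2 and Celero EZ DNA-Seq kits. Alignment by the authors was to mm10 by STAR 2.5, and assignment to RefSeq Curated genes, regardless of strand, by featureCounts (Subread 1.5.0-p1). The authors deposited raw counts of 24470 entries, used here as they are, and 0 other columns of values per sample.

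Counts were scaled by TMM over all 10 libraries (factors 0.95128 to 1.0388), filtered by filterByExpr (minimum count 10, minimum total 15; 13941 genes kept) and tested with edgeR's quasi-likelihood test, with embryo and treatment in the design and Benjamini-Hochberg adjustment over all tested genes. SE equals the log2 fold change, without its sign, over the root of its F. Gonads with the same number in their titles were taken as a pair from 1 embryo, because the paper put the mouse in its test for pairing. Deviations from the treatment mean correlated at -0.0398 to 0.155 within an embryo (mean 0.06) and at -0.0147 on average between embryos. Chi-square per degree of freedom between libraries of 1 treatment was 6.42 to 27.8, so none was a duplicate. Ratios within embryos used a prior count of 2. Lengths are from GENCODE M21.

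The members, the 3 pathway lists and the 12 marker lists were chosen with earlier results of these data known. Values in every sample are given for called members and for Itgb1, Lamb1, Lamc1, Nid1, Nid2 and Itgav, and, chosen after their values were seen, for Lama1, Lama3 and the raw counts of Itgax, Itgad, Itgb2 and Itgb6. Of each pathway list, the 3 called genes with the smallest p and Col4a1, Col4a2, Hspg2, Fn1, Tln1, Fermt2, Fermt3 and Vcam1 are named, and of each marker list the first 3 genes and the most abundant. Cox6a2, Pelo, Cerkl, Mir6963, E030013I19Rik and Rtraf are named for their overlap, and Fras1, Frem2, Smoc1, Smoc2, Dag1, Spp1, Thbs1, Tnc, Npnt, Col4a3 to Col4a6 and other marker genes after their values were seen. Alternatives left out each embryo in turn, dropped the filter or asked for 10 counts in each library, dropped the embryo from the design, scaled by total counts or by size factors of DESeq2, or used DESeq2 in place of edgeR. The procedure was tested on simulated data. Figures were drawn with matplotlib 3.10.9, tables made with pandas 2.3.3, numpy 2.4.6 and Python 3.11.15, and fits run in R 4.3.3 with DESeq2 1.42.0 and edgeR 4.0.16 (random seed 1).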

Additional observations from a re-analysis of the deposited data

Results flagged for a closer look

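In 5 of the 64 groups of 5 gonads (32 tested members, each with vehicle and with GPI), 1 gonad lay far from the other 4: its gap to the nearest was over 0.71 of the range of the group (Dixon's 95% limit). Chance puts about 1 in 20 groups past this limit. Among the GPI gonads, M1 was low in Itga6 (226 CPM, against 358 to 404 in the other 4), in Itga9 (337 CPM, against 454 to 499 in the other 4) and in Lama1 (45.2 CPM, against 77.3 to 81.4 in the other 4), and M2 was high in Itga1 (18.2 CPM, against 5.83 to 7.85 in the other 4). Among the vehicle gonads, M4 was high in Itga2 (45.4 CPM, against 29.8 to 34.2 in the other 4).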

How the results depend on the processing

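Over 11 alternatives, 15 of the 18 called members were called in the same direction wherever they were tested, the exceptions being Itga6, Itga9 and Itgb3. Without the replicate block (no pairing by embryo), 13 members were lower and 2 higher, the calls of these 3 being the ones lost, and over all genes 1610 were lower and 1498 higher. With each embryo left out in turn, members called lower numbered 13 to 15 and higher 2 to 3; all genes called lower numbered 1287 to 1685 and higher 969 to 1430, the fewest lower without M4 and the fewest higher without M3, where fewer samples enter the fit. Among members not called, the sign of the log2 fold change turned for the following, each with its range over embryos left out: Itga2b (-0.07 with no replicate block, -0.35 without M1, -0.01 without M5; -0.35 to 0.82), Itgae (0.16 without M4; -0.53 to 0.16), Itgb4 (0.23 without M3; -0.57 to 0.23), Itgb7 (-0.01 with no replicate block, -0.11 without M3; -0.11 to 0.62), Lama1 (-0.01 without M2, -0.01 without M4; -0.01 to 0.23), Lama2 (0.00 with no replicate block, 0.06 without M1, 0.01 without M3; -0.12 to 0.06) and Lama5 (0.06 without M5; -0.19 to 0.06); the cause was not tested, and no adjusted p of these was under 0.05. Scaling by DESeq2 size factors or total counts left 15 members lower and 3 higher, and moved the median of all genes to no less than -0.03; over all genes 1968 were lower and 1244 higher with total counts, against 1654 and 1544. Members with few counts (Itga2b, Itgae, Itgal, Itgb4, Itgb7) were not testable with at least 10 counts in every library.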
